A study of Rattus norvegicus with 9 samples.

Results

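Gad1, Gad2, Slc32a1 and Gabrg1 are genes of inhibitory transmission by GABA, and their levels are described here across the hypothalamus of 9 male rats aged 13 weeks. Every probe set of the array whose platform annotation gives 1 of these symbols alone was taken, which gave 5 of the 31042 probe sets analysed, for 4 of 14217 named genes. Gad1 had 2 probe sets (1368344_at and 1370760_a_at), and Gad2 (1369462_at), Slc32a1 (1387380_at) and Gabrg1 (1387706_at) had 1 each. The genes were selected on their deposited values in these same rats, among them their spread between animals and the rats in which they were high, so levels and likeness are given as description with no test.

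Rats on the noodle diet (n = 4, numbered 1, 4, 7 and 13) ate feed of which 30% by weight was instant noodle, with 26% of the energy from fat, together with the noodles' seasonings. Rats on the control diet (n = 5, numbered 2, 5, 8, 11 and 14) ate that feed with the seasonings left out, so noodles and fat were common to both groups. The series asks whether seasonings alter hypothalamic transcripts, and each array holds RNA of 1 rat after 30 days by one label and 4 weeks by another, with intake matched between diets. The labels name no strain, genotype or drug.

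GABA is made from glutamate by glutamate decarboxylase, which has a pair of isoforms encoded by Gad1 and Gad2. The Gad1 enzyme is spread through the neuron and makes most basal GABA, while the Gad2 enzyme is tied to nerve terminals and vesicles. Slc32a1 encodes the vesicular transporter that loads GABA, and also glycine, into synaptic vesicles. Gabrg1 encodes the gamma-1 subunit of the GABA-A receptor, a chloride channel of the receiving cell. In the hypothalamus GABA neurons are widespread and act on feeding, hormone release and daily rhythm.

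The sequences before the 4 genes are shown because the presynaptic genes Gad1, Gad2 and Slc32a1 shared their highest rat while Gabrg1 had another order of rats. They are from RefSeq (build GRCr8), 5′ to 3′, and stop at the last base before each gene's outermost annotated start, which left 58 bases for Gad1 and 250 bases for the others. Capitals mark TATAAA, or CCAAT on either strand, where the other strand reads ATTGG in the print.
Gad1, chr3:75777202-75777259, + strand: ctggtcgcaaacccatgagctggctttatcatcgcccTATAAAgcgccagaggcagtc
Gad2, chr17:89671468-89671717, + strand: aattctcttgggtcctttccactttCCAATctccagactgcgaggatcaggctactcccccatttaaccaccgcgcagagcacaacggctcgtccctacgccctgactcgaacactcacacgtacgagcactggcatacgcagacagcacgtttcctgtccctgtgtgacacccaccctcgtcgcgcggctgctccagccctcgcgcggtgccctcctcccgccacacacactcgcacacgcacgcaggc
Slc32a1, chr3:167686995-167687244, + strand: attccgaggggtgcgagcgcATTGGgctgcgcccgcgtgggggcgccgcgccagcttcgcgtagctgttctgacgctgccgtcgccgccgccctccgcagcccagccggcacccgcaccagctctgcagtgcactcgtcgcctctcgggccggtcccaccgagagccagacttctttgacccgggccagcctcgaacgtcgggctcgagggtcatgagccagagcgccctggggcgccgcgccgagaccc
Gabrg1, chr14:37750042-37750291, + strand: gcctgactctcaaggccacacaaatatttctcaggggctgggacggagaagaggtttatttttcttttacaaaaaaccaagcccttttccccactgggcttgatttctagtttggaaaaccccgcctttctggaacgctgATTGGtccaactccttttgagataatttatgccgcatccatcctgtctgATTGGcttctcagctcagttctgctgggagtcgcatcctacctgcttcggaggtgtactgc

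TATAAA was found in the Gad1 stretch alone, 21 bases before the gene's start, and 12.9% of the 250-base windows of 33469 genes hold it on either strand. CCAAT occurred once before Gad2, once before Slc32a1 and at 2 places before Gabrg1. Of all windows, 34.0% hold CCAAT and 9.4% hold it at 2 or more places. The Gad1 stretch searched has 58 bases, so these shares of 250-base windows are not for a stretch of its length. The lack of CCAAT in it is likewise not comparable with the other 3 genes. The 250-base windows of Gad1, Gad2 and Slc32a1 hold 23, 22 and 34 CG steps, against a median of 5 over all genes, and that of Gabrg1 holds 6. The Gad1 window of that count is placed on a transcript start that lies 192 bases inside the gene. These matches describe letters only.

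Most values in the deposited table barely move between animals, which bears on every gene below. Of 31042 probe sets, 1223 (3.94%) ranged over more than 0.05 log2 units across the 9 rats and are called variable, while 29759 ranged over less than 0.01 and are called compressed. All 5 probe sets of the 4 genes were variable, with ranges from 0.345 to 0.520, against a median of 0.47 for variable probe sets. The array medians lay between 6.777 and 6.785, correlations between arrays over all probe sets were 0.997 to 0.999, and none of 36 pairs of arrays held the same values. The limit of 0.05 came from values already seen, and no probe set's level is set against another's.

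Gad1, by probe set 1368344_at, was nearly level in most animals, with 1 rat above and 1 below. It measured 10.838, 10.813, 10.833 and 10.815 in noodle-diet rats 1, 4, 7 and 13, against 10.818, 10.820, 10.690, 10.803 and 11.035 in control rats 2, 5, 8, 11 and 14. Leaving out control rats 14 and 8, the other 7 rats lay within 10.803 to 10.838. The noodle-diet values had an SD of 0.013 and the control values one of 0.125, the wider one set by those same control animals, and the groups overlapped. Between the highest and the lowest rat the difference was 1.27-fold.

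The other Gad1 probe set, 1370760_a_at, spread more widely and gave another order of rats below the top. It measured 7.209, 7.030, 7.271 and 7.336 in noodle-diet rats 1, 4, 7 and 13, against 7.191, 7.175, 7.160, 7.414 and 7.490 in control rats 2, 5, 8, 11 and 14. Control rat 14 was again the highest, but the lowest was noodle-diet rat 4, and control rat 11 was second here and eighth by the other probe set. Over the 9 rats the Gad1 probe sets had a Pearson r of 0.608 and a Spearman rho of 0.417. Without control rats 14 and 8 r was -0.228, so their likeness rests on those animals. The Gad1 transcripts that each probe set detects were not analysed here.

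Gad2 measured 8.340, 8.427, 8.600 and 8.358 in noodle-diet rats 1, 4, 7 and 13, against 8.365, 8.508, 8.299, 8.396 and 8.819 in control rats 2, 5, 8, 11 and 14. Control rat 14 stood 0.219 above the next rat, noodle-diet rat 7, which is 1.16-fold, and control rat 8 was the lowest. Its range over the 9 rats, 0.520 or 1.43-fold, was the widest of the 5 probe sets.

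Slc32a1 measured 8.617, 8.855, 9.012 and 8.643 in noodle-diet rats 1, 4, 7 and 13, against 8.669, 8.737, 8.751, 8.688 and 9.092 in control rats 2, 5, 8, 11 and 14. Its highest rats were again control rat 14 and noodle-diet rat 7, followed by noodle-diet rat 4. Noodle-diet rats spread over 0.395 log2 units, while the 4 control rats other than rat 14 lay close together, at 8.711 ± 0.039 (SD, n = 4). Slc32a1 is a marker of GABA and glycine neurons, and in tissue RNA fewer such cells and less RNA per cell cannot be told apart.

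Gabrg1, the receptor subunit, followed a different order. It measured 7.992, 7.764, 8.120 and 7.897 in noodle-diet rats 1, 4, 7 and 13, against 7.800, 7.869, 8.156, 7.960 and 8.010 in control rats 2, 5, 8, 11 and 14. Control rat 8, the lowest rat for Gad2 and for Gad1 by 1368344_at, was the highest for Gabrg1. Noodle-diet rat 4 was the lowest. No rat stood far from the rest, and the highest over the lowest was 1.31-fold.

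**Figure D1:**
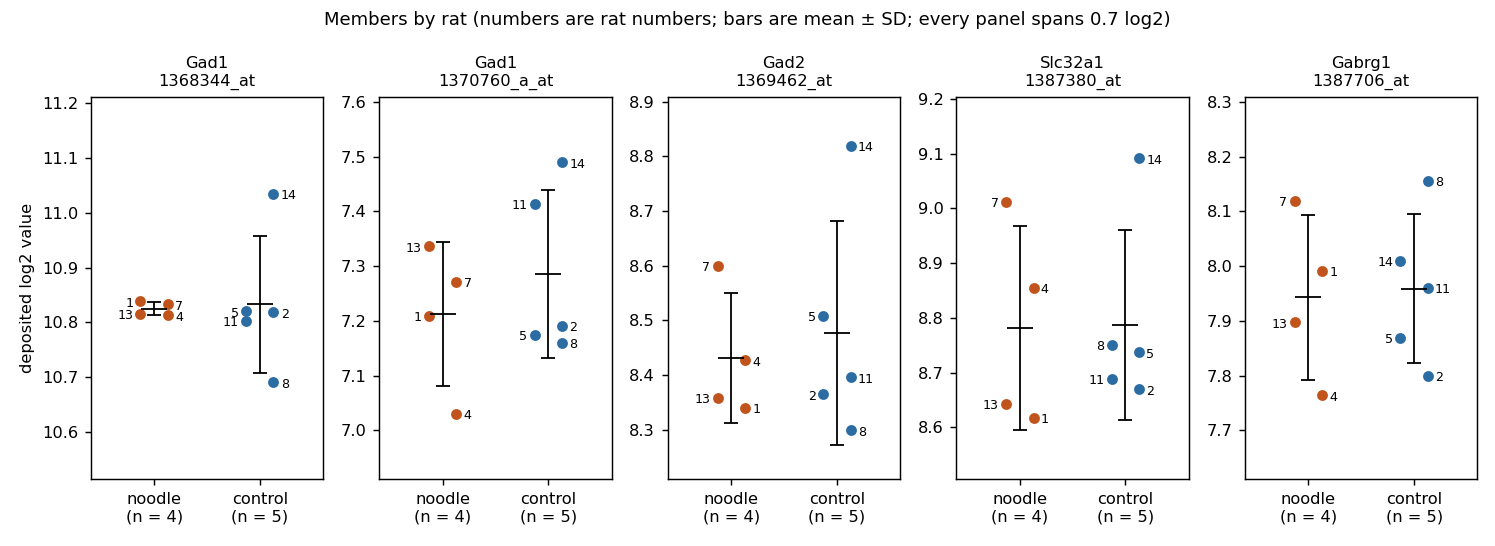
Deposited log2 values of the 5 probe sets of Gad1, Gad2, Slc32a1 and Gabrg1, with 1 point per rat (its number beside it), noodle diet (n = 4) left of control diet (n = 5) and bars for mean ± SD. Each vertical axis spans 0.7 log2 units but starts at its own level. Control rat 14 tops all panels but that of Gabrg1, where control rat 8 does.

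Rat by rat, control rat 14 was the highest of the 9 in all 4 presynaptic probe sets, and ranked 3 for Gabrg1. Its mean deviation over those 4 probe sets was 0.278 log2 units above the mean of all rats. Noodle-diet rat 7 was the only other animal above the mean in all 5 probe sets, with a mean presynaptic deviation of 0.0982. That mean came mostly from Gad2 (0.143) and Slc32a1 (0.227), since its Gad1 deviations were 0.0036 (1368344_at) and 0.018 (1370760_a_at). Control rat 2 was below the mean in all 5. The animals above the mean in all 5 thus came from both diets, 1 from each.

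The diets did not differ detectably in any of the 4 genes. The test was limma's moderated test over all 31042 probe sets, 2-sided, with Benjamini-Hochberg adjustment and a threshold of 0.05, and differences are noodle minus control. Each of the 5 probe sets had an adjusted p of 1.0 by limma, and 0 of 5 passed, beside 0 probe sets (0%) over the whole table. At an unadjusted p under 0.05 limma gave 712 probe sets (2.29%), none of them among the 5, whose unadjusted p ran from 0.444 to 0.964; among the variable probe sets 11 (0.899%) had one. Groups that do not overlap occurred in 0 of 5, beside 0.567% of all probe sets and 0.0818% of variable ones.

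By 1368344_at Gad1 averaged 10.825 ± 0.013 in noodle-diet rats and 10.833 ± 0.125 in control rats (SD, n = 4 and 5), with a difference of -0.0084 with a 95% interval of -0.148 to 0.132. By 1370760_a_at it averaged 7.212 ± 0.132 in noodle-diet rats and 7.286 ± 0.154 in control rats, with a difference of -0.075 (interval -0.288 to 0.139). Gad2 averaged 8.431 ± 0.119 in noodle-diet rats and 8.477 ± 0.205 in control rats, with a difference of -0.046 (interval -0.303 to 0.210). All of these differences are smaller than the SD of the control rats.

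Slc32a1 averaged 8.782 ± 0.187 in noodle-diet rats and 8.787 ± 0.173 in control rats, with a difference of -0.0054 (interval -0.270 to 0.259). Gabrg1 averaged 7.943 ± 0.151 in noodle-diet rats and 7.959 ± 0.137 in control rats, with a difference of -0.016 (interval -0.227 to 0.195). The intervals hold the differences compatible with these 9 arrays. They are not adjusted for the number of probe sets and are not a limit of detection. Without control rat 14 the differences turned to 0.042 for Gad1 (1368344_at), 0.039 for Gad2 and 0.071 for Slc32a1, and the Gad1 difference by 1370760_a_at shrank to -0.024. Gabrg1 turned to 0.044 without noodle-diet rat 4 and to 0.034 without control rat 8.

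**Figure D2:**
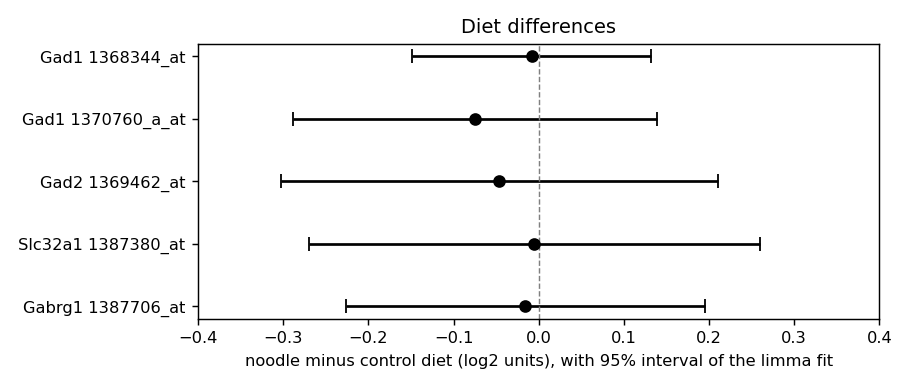
Noodle minus control difference of each probe set in log2 units (points), with the 95% interval of the limma fit over 4 and 5 rats (bars). Every interval holds 0, and that of Gad1 1368344_at is the narrowest, at -0.148 to 0.132.

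Gad2 and Slc32a1 were the closest pair of the 4 genes. Over the 9 rats their Pearson r was 0.883 and their Spearman rho 0.717, and r was 0.891 with each diet's mean removed. Among 842 other named genes with a variable probe set, Slc32a1 ranked 1 in likeness to Gad2, and Gad2 ranked 1 in likeness to Slc32a1. With control rat 14 left out r was 0.773, and without both control rat 14 and noodle-diet rat 7 it was 0.382, so the relation rests largely on those 2 animals. Of 10 pairs of the 5 probe sets, all are given as description with no p, since the genes were chosen with these values known.

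Gad1 by 1368344_at had an r of 0.857 with Gad2 (rho 0.517) and 0.608 with Slc32a1 (rho 0.133). Without control rats 14 and 8 these were 0.252 and 0.210. By 1370760_a_at it had an r of 0.531 with Gad2 (rho 0.333) and 0.292 with Slc32a1 (rho 0.017), and without control rats 14 and 11 these were 0.090 and -0.171. The likeness of Gad1 to the other presynaptic genes therefore came from a few animals at the ends of its range.

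Gabrg1 had weak correlations with the presynaptic genes, none of them above 0.335 over the 9 rats. Its r was 0.162 with Gad2 (rho -0.083), 0.322 with Slc32a1 (rho 0.300), -0.099 with Gad1 by 1368344_at (rho 0.133) and 0.335 by 1370760_a_at (rho 0.333). Without control rat 14 and noodle-diet rat 7 those with Gad2 and Slc32a1 were -0.610 and -0.241. Without control rats 14 and 8 that with 1368344_at was 0.538, and without control rats 14 and 11 that with 1370760_a_at was 0.365.

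**Figure D3:**
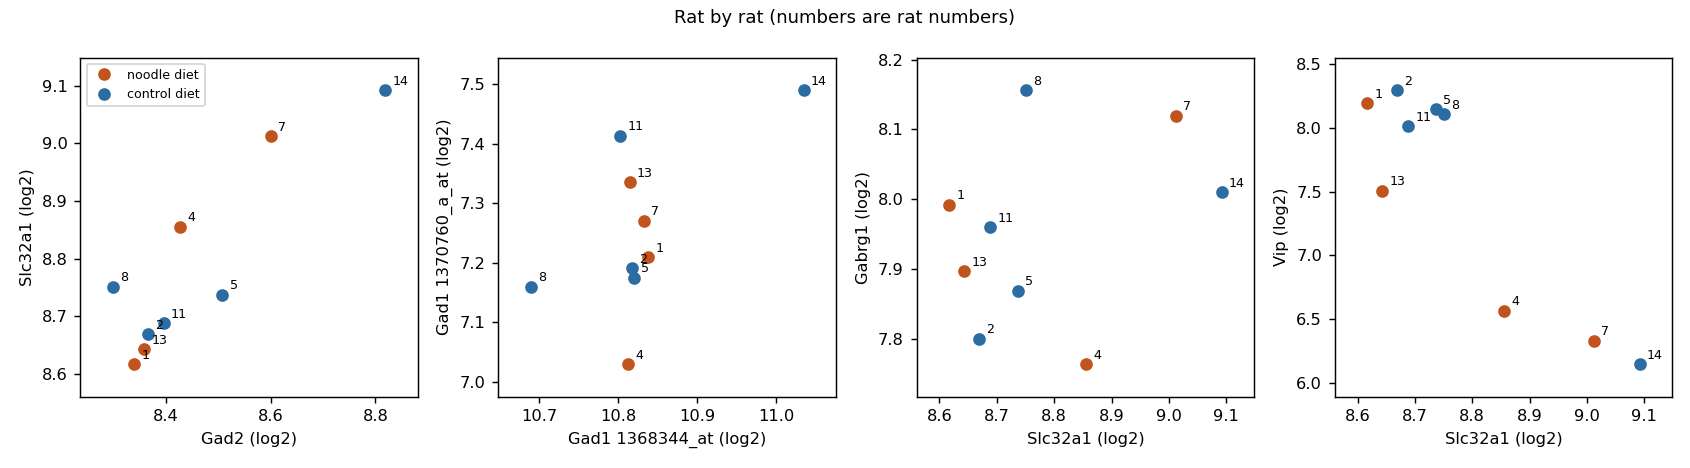
Deposited log2 values of 1 gene against another in the 9 rats, with the rat number beside each point and colours for the noodle (n = 4) and control (n = 5) diets. In the first panel control rat 14 and noodle-diet rat 7 lie at the upper end of both Gad2 and Slc32a1, in the second the Gad1 probe sets share little besides control rat 14, in the third Gabrg1 shows no order along Slc32a1, and in the last Vip is lowest in the 3 rats with the highest Slc32a1.

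The genes most like each gene were taken as the 5 of highest and the 3 of lowest r over the 9 rats, among the 842 other named genes with a variable probe set. For Gad2 the highest after Slc32a1 were Hpcal1, a neuronal calcium sensor (r 0.871), Dlx1, a homeobox factor of GABA neuron development (0.847), Trhr, the receptor for thyrotropin-releasing hormone (0.842), and Glra2, a glycine receptor subunit (0.794). All 5 were highest in control rat 14, and without it their r with Gad2 lay between 0.441 and 0.773. Dlx1 measured 8.009, 8.081, 8.184 and 8.027 in noodle-diet rats 1, 4, 7 and 13, against 8.155, 8.050, 8.103, 8.090 and 8.409 in control rats 2, 5, 8, 11 and 14. Its gap between control rat 14 and the others is thus of the same kind as that of Gad2. The lowest for Gad2 were Retsat, a retinol saturase (-0.897), Galm, a galactose mutarotase (-0.856), and Mfap4, a matrix protein gene (-0.838), which were -0.634, -0.610 and -0.765 without control rat 14.

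For Slc32a1 the highest after Gad2 were Cbln2, a synapse organizer (r 0.876), the acid-sensing channel gene Asic2 (0.837), Dlx1 (0.830) and the neuropeptide gene Nts (0.812). All 5 were highest in control rat 14, and without it their r with Slc32a1 lay between 0.659 and 0.783. Nts, neurotensin, measured 7.491, 7.762, 8.296 and 7.922 in noodle-diet rats 1, 4, 7 and 13, against 7.927, 7.725, 7.928, 7.771 and 8.310 in control rats 2, 5, 8, 11 and 14, so noodle-diet rat 7 and control rat 14 were its top animals as well.

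The gene most opposed to Slc32a1 was Vip, the vasoactive intestinal peptide of suprachiasmatic neurons. Vip measured 8.192, 6.564, 6.328 and 7.508 in noodle-diet rats 1, 4, 7 and 13, against 8.295, 8.148, 8.108, 8.013 and 6.146 in control rats 2, 5, 8, 11 and 14. Its 3 lowest rats, control rat 14 and noodle-diet rats 7 and 4, were the 3 highest for Slc32a1, in reverse order. Since Vip falls into separated levels, no pooled r is given for it. The next most opposed were Vamp8, a vesicle fusion protein gene (-0.840), and Ecrg4 (-0.833), which were -0.775 and -0.649 without control rat 14.

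For Gad1 the rule takes 1370760_a_at, its more variable probe set, and the 5 highest were Prepl (r 0.909), the protein kinase A catalytic subunit gene Prkacb (0.868), Nap1l5 (0.864), the protocadherin gene Pcdh20 (0.863) and Alg2, a glycosylation enzyme gene (0.841). Without control rat 14 these lay between 0.770 and 0.844. The lowest were Mlc1 (-0.830), Plekhb1 (-0.816) and Aldh1l1 (-0.803), of which Mlc1 and Aldh1l1 are astrocyte genes. The other Gad1 probe set, 1368344_at, was added to the rule after its values were seen. Its 5 highest were Trhr (0.984), Rgs17, a regulator of G protein signalling (0.913), Chst1, a sulfotransferase gene (0.901), Glra2 (0.879) and Dnajc6, which encodes auxilin (0.873), and all 5 were highest in control rat 14 and lowest in control rat 8. Its lowest were Acy1 (-0.933), Retsat (-0.860) and Ddr1 (-0.852), which were -0.725, -0.414 and -0.568 without control rat 14.

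Gabrg1 was most like Klhdc2, a substrate receptor of a ubiquitin ligase (r 0.918, rho 0.967), Pdha1, a subunit of pyruvate dehydrogenase (0.912), Gdi2, a regulator of Rab proteins (0.875), Ppp3r1, the regulatory subunit of calcineurin (0.823), and Rab5a, an endosomal Rab protein (0.817). Without control rat 14, which ranked only 3 for Gabrg1, these lay between 0.847 and 0.948. The rats at the ends of the Gabrg1 range, control rat 8 and noodle-diet rat 4, were not left out for these genes. Klhdc2 measured 9.743, 9.605, 9.749 and 9.653 in noodle-diet rats 1, 4, 7 and 13, against 9.594, 9.610, 9.768, 9.677 and 9.765 in control rats 2, 5, 8, 11 and 14. The lowest were Tmod2, a neuronal tropomodulin (-0.903), Herc1 (-0.899) and the chloride transporter gene Clcn3 (-0.849). An r picked as the highest of 842 is high by selection and is given only to name the genes.

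Among the GABA-A receptor subunits analysed here, the Gabrg1 probe set alone moved between rats. The 15 other subunit genes analysed are covered by 23 probe sets, all compressed, with ranges of at most 0.00116 log2 units, against 0.392 for Gabrg1. Gabrb1 stood at 10.247 and Gabra5 at 8.929 on both diets. In the GRCr8 gene table Gabra2 and Gabra4 are neighbours of Gabrg1 on chromosome 14, and both were compressed. Since compressed values carry no usable fold change, the table does not tell whether the transcripts of these subunits varied.

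The rest of the GABA pathway was likewise mostly compressed, and 0 of its genes passed limma's test. Of these 15 subunits 11 were higher and 4 lower on the noodle diet, with a median difference of 3.2e-05. All 4 measured genes of the GABA-B receptor list were lower by their probe sets of widest range (median -0.00011). Of these, 3 were compressed, and Gabbr1 was higher by its other variable probe set (0.032). Of 4 genes of GABA uptake and breakdown 1 was higher and 3 lower (median -0.00019). Over all probe sets tested 14913 were higher and 16129 lower, with a median of -4.6e-06. These counts rest largely on compressed values.

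Gabbr1, a subunit of the GABA-B receptor, had the widest range of the pathway by its probe set 1388030_a_at, at 7.669 ± 0.414 in noodle-diet rats and 7.820 ± 0.518 in control rats (difference -0.15, interval -0.854 to 0.552). Of its 5 probe sets, 1369371_a_at was also variable, at 9.200 ± 0.150 in noodle-diet rats and 9.168 ± 0.099 in control rats, and the others were compressed. Its r with Gad2 and Slc32a1, by the wider probe set, was 0.133 and -0.070. Its probe sets thus disagree on how much it varied, since 1369371_a_at ranged over 0.327 log2 units and 1388030_a_at over 1.34. They also disagree on the order of rats and the sign of the diet difference (0.032 by 1369371_a_at). Noodle-diet rat 1 was the lowest by 1369371_a_at (8.975), but lay above its diet's mean by 1388030_a_at (8.145).

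Slc6a13, a GABA transporter found mainly in the meninges, averaged 6.800 ± 0.524 in noodle-diet rats and 6.897 ± 0.559 in control rats (difference -0.097). Of 5 genes of precursor supply, Glul, the glutamine synthetase of astrocytes, averaged 9.820 ± 0.087 in noodle-diet rats and 9.792 ± 0.122 in control rats (difference 0.028), and Slc38a2, a glutamine transporter, 9.182 ± 0.098 in noodle-diet rats and 9.168 ± 0.125 in control rats (difference 0.014). Over the 9 rats Glul had an r of 0.808 with Gabrg1 (rho 0.817, and r 0.771 without noodle-diet rat 4 and control rat 8) and of 0.098 with Gad2. Of 9 genes of the inhibitory synapse and chloride balance, Slc12a2, a chloride importer, averaged 9.948 ± 0.030 in noodle-diet rats and 9.927 ± 0.131 in control rats (difference 0.021). Of 3 measured GABA neuron transcription factors only Dlx1 was variable, at 8.075 ± 0.078 in noodle-diet rats and 8.162 ± 0.144 in control rats (difference -0.086). None of these differences passed limma's test (adjusted p = 1.0 for each).

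**Figure D4:**
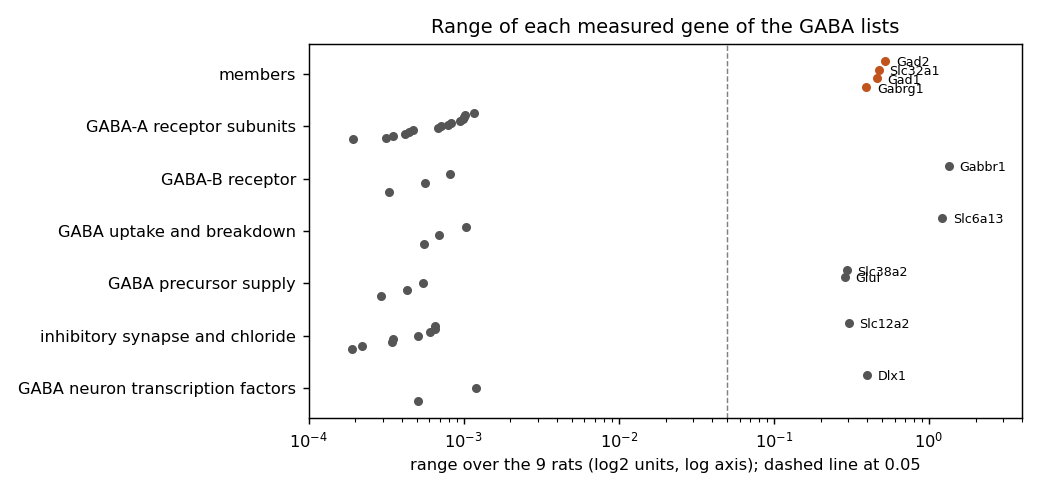
Range over the 9 rats of each measured gene of the GABA lists, in log2 units on a log axis, with 1 point per gene (its probe set of widest range) and a dashed line at 0.05, the limit of variable probe sets. The 4 genes described here and Gabbr1, Slc6a13, Slc38a2, Glul, Slc12a2 and Dlx1 lie right of the line, and the 15 other GABA-A subunits analysed lie left of it.

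Markers of meninges, astrocytes and oligodendrocytes mostly had a negative r with Gad2 and Slc32a1 over the rats. Of 10 listed markers of meninges and fibroblasts 9 were measured and 9 were variable, and 9 of 9 had a negative r with Gad2 and with Slc32a1. Low values were common, since among 842 genes an r of 0.162 ranked 237 from the highest for Gad2, and 0.292 ranked 140 for Slc32a1. The share of all variable genes with a negative r was not counted, so the 9 of 9 has no background beside it. The summed linear level of the 9 markers ran from 1471 to 3109 in noodle-diet rats and from 1340 to 2764 in control rats. Their score, the mean deviation of the variable markers, had an r of -0.676 with Gad2 and -0.704 with Slc32a1, which were -0.606 and -0.608 without control rat 14 and -0.745 and -0.829 without the 2 rats farthest from the score's median. The score was lowest in control rat 14 (-0.564) and highest in noodle-diet rat 1 (0.700), where Slc32a1 was lowest. With Gabrg1 its r was 0.023.

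Of 10 listed oligodendrocyte markers 9 were measured and variable, and 9 of 9 had a negative r with Gad1 by either probe set, with Gad2 and with Slc32a1. For Gad1 (1368344_at) an r of -0.099 ranked 349 of 842 from the highest, so most genes had a negative r with it. The oligodendrocyte score had an r of -0.622 with Gad1 (1368344_at), -0.494 with Gad2 and -0.345 with Slc32a1, and of 0.374 with Gabrg1. Without control rat 14 these were -0.634, -0.344, -0.124 and 0.477, and without the 2 rats farthest from the score's median -0.535, -0.635, -0.692 and -0.382, so the size of the value with Slc32a1 and the sign of that with Gabrg1 depend on 1 or 2 animals. It was highest in control rat 8 (0.399), the rat with the lowest Gad2 and the highest Gabrg1. The summed linear level of these markers ran from 7726 to 9577 in noodle-diet rats and from 7044 to 10987 in control rats. Of 10 astrocyte markers 6 were variable, with a summed level of 11053 to 13701 in noodle-diet rats and 10159 to 13530 in control rats and a score r of -0.514 with Gad2 and -0.588 with Slc32a1. Without control rat 14 these were -0.233 and -0.403, and without the 2 rats farthest from the score's median -0.733 and -0.534. Of the 6 variable astrocyte markers 5 had a negative r with Gad1 (1368344_at), Gad2 and Slc32a1, while S100b had an r of 0.373 with Gad1 (1368344_at), 0.216 with Gad2 and 0.024 with Slc32a1. The astrocyte score's r with Gad1 (1368344_at) was -0.424. It was -0.009 without control rat 14 and -0.720 without the 2 rats farthest from the score's median. The part of these markers in the levels of the 4 genes was not tested.

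Markers of neurons and of brain regions were mostly compressed, and the variable ones went both ways with the genes. Of 12 pan-neuronal markers 4 were variable, Nefl, Nefm, Nefh and Map2, and their score had an r of 0.376 with Gad2, 0.565 with Slc32a1 and -0.044 with Gabrg1. With Gad1 it was 0.141 (1368344_at) and -0.158 (1370760_a_at). The value with Gabrg1 averages opposed markers, since Map2 had an r of -0.734 and Nefl, Nefm and Nefh 0.322, 0.308 and 0.120. The summed linear level of the 12 markers ran from 12802 to 13098 in noodle-diet rats and from 12660 to 12946 in control rats. The 4 measured glutamate neuron genes, among them Slc17a6 at 10.436 on both diets, and the 8 cortex and amygdala markers were all compressed. Of 11 measured striatal and septal markers only Ppp1r1b was variable, with an r of -0.432 with Gad2 and -0.703 with Slc32a1. These were -0.086 and -0.592 without control rat 14, and -0.653 and -0.823 without the 2 rats farthest from its median. Of 6 thalamic markers only Calb2 was variable, with 0.399 and 0.521. Those were 0.505 and 0.587 without control rat 14, and 0.199 and 0.226 without the 2 rats farthest from its median. As to the tissue label, all 19 listed hypothalamic markers had a probe set, which is a feature of the array, and 8 were variable. Their score had an r of 0.355 with Gad2 and 0.542 with Slc32a1. These were 0.203 and 0.487 without control rat 14, and 0.065 and 0.284 without the 2 rats farthest from the score's median. The score averages opposed markers. With Slc32a1, 2 of the 8 had a negative r, Npy (-0.799) and Cartpt (-0.739), while Oxt (0.645) and Trh (0.636) had the highest. With Gad2, 3 of the 8 had a negative r. The lateral hypothalamic peptide gene Pmch averaged 12.197 ± 0.095 in noodle-diet rats and 12.133 ± 0.203 in control rats. Pomc, Crh and Otp stood at 6.257, 6.367 and 5.846 on both diets and were compressed. The files give no detection call for single markers, so the tissue label was not tested.

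**Figure D5:**
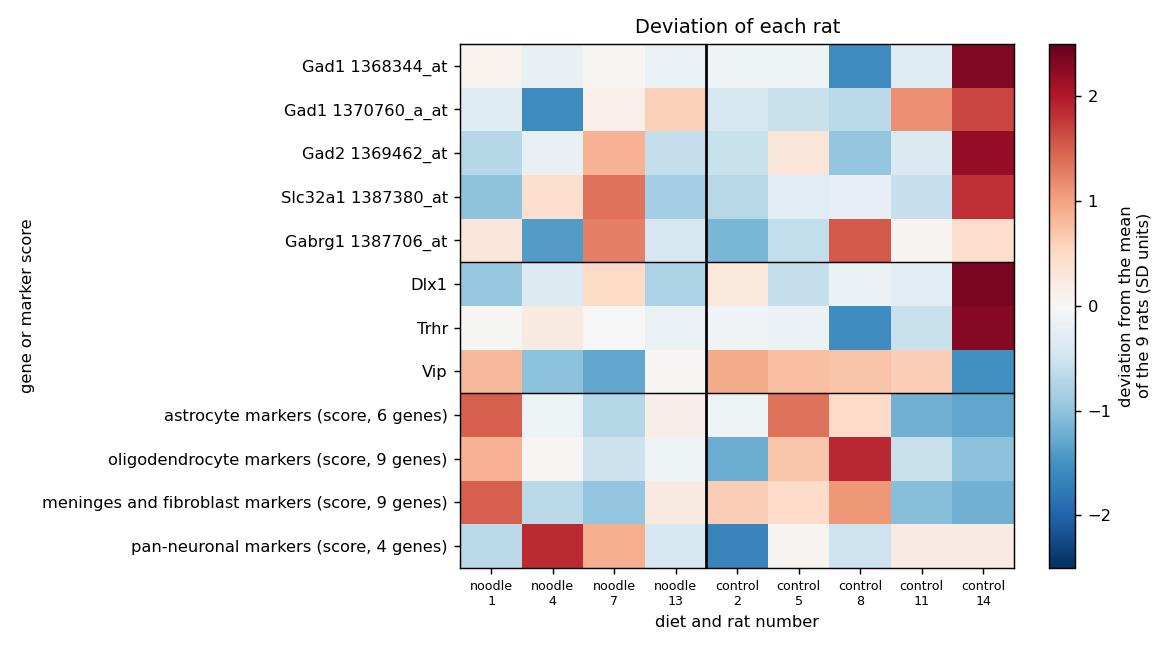
Deviation of each rat from the mean of the 9 rats, in SD units, for the 5 probe sets, for Dlx1, Trhr and Vip, and for the scores of 4 marker lists, with the 4 noodle-diet rats left of the 5 control rats. Control rat 14 is high for the presynaptic genes, Dlx1 and Trhr and low for Vip and the meningeal and oligodendrocyte scores, and control rat 8 is low for Gad1 (1368344_at) and Gad2 and high for Gabrg1 and the oligodendrocyte score.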

How the data were processed

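Total RNA of hypothalamus was extracted with TRIzol, cleaned on a column and labelled from 100 ng, per the labels' protocols, with 1 array per rat. The authors deposited 1 table of log2 values; that the scale is log2 was read from the values (5.13 to 13.7), and the way probes were summarized and arrays normalized is not stated in the labels. Values were used as deposited after leaving out 57 control probe sets. Symbols came from the platform annotation (1 symbol for 20826 probe sets, several for 436, 9780 unnamed here), checked by gene number against a GRCr8 gene table, with 0 symbols changed.

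Diets were compared with limma 3.58.1 in R 4.3.3 (lmFit and eBayes with an intensity trend, checked on simulated data), and correlations and the exact permutation test were computed in Python 3.11.15 with SciPy 1.17.1. Lists use 1 probe set per gene, that of the widest range. The 4 genes, the lists and the tests were chosen with earlier results of these data known. The rule for named genes was every probe set of the 4 genes and the 5 most and 3 least alike per gene. Per list it took up to 4 variable genes (or 2 compressed) of highest mean. For the cell type and region lists not all of these are printed. Pomc, Crh, Otp, Npy, Trh, Gabra2 and Gabra4 are named outside the rule. Each array is a different rat by its label, so a p-value reflects spread among 9 animals, whose number limits the precision. Alternatives were quantile normalization, a common array median, no trend, a filter on means below the 20th percentile, variable probe sets alone, array weights, the exact permutation test and leaving out each rat.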

Additional observations from a re-analysis of the deposited data

Results flagged for a closer look

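Each diet group of 33 probe sets (the 5 described and 28 variable probe sets of the lists, 66 groups in all) was searched for a single outlying rat, by its gap to the nearest other relative to the group's range. There were 5 such groups. A chance count of about 3.3 holds only for independent groups not chosen on their spread. These probe sets were chosen on it, so the 5 are given as description. Slc32a1 stood at 9.092 in control rat 14, with the other control rats at 8.669 to 8.751. Glul, the glutamine synthetase gene, stood at 9.690 in noodle-diet rat 4, with the others of its diet at 9.854 to 9.870. Nefh, a neurofilament gene, stood at 9.400 in control rat 2, with the others at 9.551 to 9.575. The vasopressin gene Avp was 10.490 in noodle-diet rat 1 and 11.642 to 11.836 in its diet mates. The oxytocin gene Oxt was 8.665 in that rat and 10.213 to 10.520 in the mates. Gad1, Gad2 and Gabrg1 had no such group, although control rat 14 was the highest of all for Gad1 and Gad2.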

How the results depend on the processing

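The count of probe sets past the threshold was 0 by limma under all 15 alternatives run. At an unadjusted p under 0.05 limma gave 712 of 31042 as deposited, 127 under quantile normalization and 16 with a common array median. It gave 7 of 1223 with variable probe sets alone, 475 of 24833 with the filter on low means, and at most 1155 of 31042, without control rat 14. The 5 diet differences kept their negative sign under quantile normalization, a common array median, no trend, the filter on low means, variable probe sets alone and array weights, and limma's adjusted p was 0.9996 or above in every alternative fit, leaving out single rats included. The exact 2-sided permutation test over 126 splits (smallest possible p 0.0159) gave p from 0.476 (Gad1, 1370760_a_at) to 0.984 (Gad1, 1368344_at). With single rats left out the difference ran from -0.0442 to 0.0420 for Gad1 1368344_at, from -0.116 to -0.014 for Gad1 1370760_a_at, from -0.103 to 0.0392 for Gad2, from -0.0821 to 0.0707 for Slc32a1 and from -0.0748 to 0.0440 for Gabrg1. Slc32a1 turned positive also without noodle-diet rat 1 (0.0495) or 13 (0.0408). The r with single rats left out ran from 0.160 to 0.730 between the Gad1 probe sets, from 0.773 to 0.920 for Gad2 with Slc32a1, from 0.499 to 0.902 (Gad2), 0.0355 to 0.699 (Slc32a1) and -0.488 to 0.357 (Gabrg1) for 1368344_at, and from 0.0250 to 0.660 (Gad2), -0.246 to 0.483 (Slc32a1) and 0.0332 to 0.599 (Gabrg1) for 1370760_a_at. For Gabrg1 it ran from 0.00935 to 0.481 with Gad2 and from 0.109 to 0.481 with Slc32a1. Control rat 14 gave the lowest r for all 6 pairs of presynaptic probe sets. The cause of these shifts was not tested. No paired analysis was possible because the diets share no rat numbers. The files give no signal over background.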
